A study of Mus musculus with 2 samples.

Results

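A 12 Mb stretch of mouse chromosome 6 held somewhat fewer input tags than the rest of the chromosome and far fewer tags of the Tbx3 chromatin immunoprecipitation (ChIP). It is described here as the 240 non-overlapping 50 kb bins from 72 to 84 Mb (positions in build mm8), of 2930 bins of chromosome 6 and 50980 bins of 20 chromosomes that held any tag. The stretch was chosen by its low ratio of ChIP to input tags in these same libraries, so its ratios, and the tag numbers that make them, are given as a description without a test. Set beside it are the other 2690 bins of chromosome 6 and the 44865 bins of the other 18 autosomes.

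Tbx3 is a T-box transcription factor that helps to keep mouse embryonic stem cells in the self-renewing state. In ChIP followed by sequencing, sheared chromatin is enriched with an antibody, and a binding site shows as a pile of tags much narrower than a kilobase. Most tags of such a library nevertheless come from chromatin without a site. Their number over a bin much wider than a site depends on how much DNA of that stretch the cells hold, on how much of it can be mapped and on how it shears and amplifies, and an input library of unprecipitated chromatin is sequenced to track these.

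The study sequenced 1 ChIP library made with a Tbx3 antibody and 1 input library, both labelled as pluripotent, self-renewing embryonic stem cells without treatment. The labels' protocols name the D3 and R1 lines, both male, grown on inactivated embryonic fibroblasts with leukaemia inhibitory factor, without assigning a line to either library. With 1 library per group there is no replicate error: all intervals are 95% intervals, cover counting error only and leave out any spread between cultures. A difference between the cells behind each library and an effect of the precipitation cannot be told apart.

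On the 20 chromosomes the libraries held 6881110 ChIP and 9982870 distinct input tags, and in the stretch 17404 and 42389. Ratios are ChIP tags over input tags multiplied by 0.689, the ratio of these totals, so that a log2 ratio of 0 stands for equal shares of both libraries. Genes and sequences at these positions are not described, because the annotation and sequences at hand belong to another mouse build.

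The low ratio filled most of the stretch but not its ends. The median log2 ratio was -0.81 over the 229 members that held more than 30% of the chromosome's median tags per bin in both libraries, and 0.08 over 2664 such bins in the rest of chromosome 6. It was 0.04 over 43905 bins of the other autosomes. The other 11 members missed that limit in the ChIP library alone, with 24 to 41 ChIP tags against a limit of 41.4, and had log2 ratios from -1.53 to -0.96. Because the limit removes members with few ChIP tags, values over all members are given as well: their median was -0.85.

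Of the 229 members, 194 had a log2 ratio at or below -0.5, which is at most 70.7% of the scaled input. In the rest of chromosome 6, 64 of 2664 bins did so (2.40%), and in the other autosomes 1358 of 43905 (3.09%). Without the limit on tags the members' count was 205 of 240, beside 2.98% in the rest of chromosome 6 and 4.39% in the other autosomes. The members were chosen for this, so the counts only describe how completely the rule's limits were filled. Between other autosomes the share ran from 1.12% on chromosome 9 to 6.81% on chromosome 13.

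**Figure D1:**
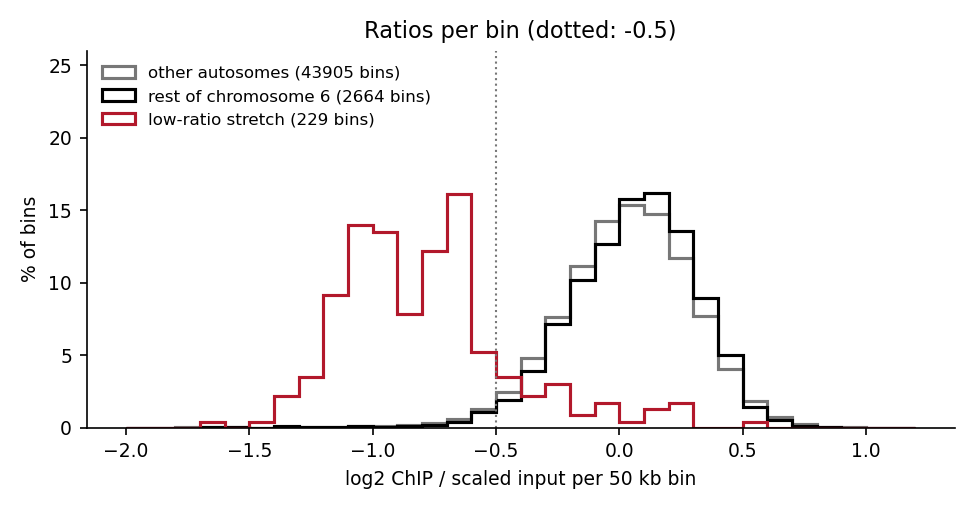
Distribution of log2 ratios, ChIP over scaled input, per 50 kb bin (x axis), as the percentage of bins in each group (y axis), for bins passing the limit on tags; a few bins beyond the drawn range are left out. The stretch's 229 bins centre near a median of -0.81 and have a small shoulder around 0, where the other groups centre.

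The ratio changed at sharp edges inside the limits of the rule. A step fitted by maximum likelihood to 10 kb bins, from 2 Mb before to 2 Mb after each limit, was placed at 72.39 Mb on the left, and no other bin border came within 2 units of its log-likelihood. On the right the step was placed at 83.57 Mb, with 83.56 Mb also within 2 units. The low part is therefore 11.18 Mb long. It contains 223 whole bins, and 7 members lie before it, 8 after it and 2 across its edges.

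Members outside the fitted edges had ratios like those of the rest of the chromosome. The 7 before the first edge had a median log2 ratio of 0.19 (lowest -0.09, highest 0.28), and the 8 after the second a median of 0.04 (lowest -0.21, highest 0.56). At the rule's own limits, the 4 members from 72 to 72.2 Mb had log2 ratios of 0.22, 0.19, 0.08 and 0.27. The 4 bins just outside had -0.19, 0.18, 0.78 and 0.03. At the other limit, the 4 members from 83.8 to 84 Mb had -0.03, -0.20, -0.13 and -0.21, and the 4 bins beyond had -0.09, 0.09, 0.07 and 0.32. The members just inside and just outside the limits thus overlapped.

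At both edges the step was in the ChIP tags. Left of the first edge, the bin from 72.30 Mb held 167 ChIP and 258 input tags, and the bin from 72.35 Mb, which the edge crosses, held 153 and 259. The next bin, from 72.40 Mb, held 85 ChIP and 261 input tags, and the one from 72.45 Mb held 103 and 280. Input tags did not fall where ChIP tags dropped by a large part from one bin to the next. Over 500 kb on each side of this edge, ChIP counts were 1759 outside and 928 inside, 0.528 of the outside value (0.487 to 0.572). Input counts were 2264 outside and 2974 inside, so input was higher inside, at 1.31 of the outside value (1.24 to 1.39).

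At the second edge the input was level. The bins from 83.45 and 83.50 Mb held 110 and 76 ChIP tags against 238 and 193 input tags, and the crossed bin from 83.55 Mb held 139 against 206. Beyond the edge, the bins from 83.60 and 83.65 Mb held 179 and 181 ChIP tags against 176 and 243 input tags. Over 500 kb on each side, ChIP counts were 1758 outside and 879 inside, a ratio of 0.50 (0.461 to 0.542). Input counts were 2482 and 2474, a ratio of 0.997 (0.942 to 1.05), whose interval includes 1.

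**Figure D2:**
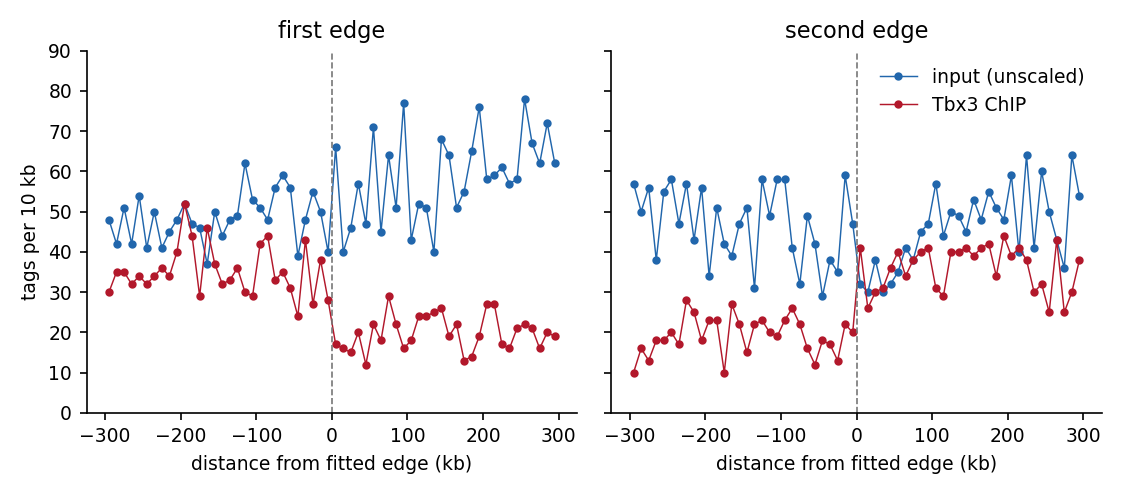
Tags per 10 kb bin (y axis) in the Tbx3 ChIP (red) and the input, unscaled (blue), against distance from each fitted edge in kb (x axis; dashed line, fitted edge). In the 10 bins before the first edge ChIP tags ran from 24 to 44 and in the 10 after it from 12 to 29; at the second edge they ran from 12 to 26 and then from 26 to 41, while input tags on its 2 sides overlapped (29 to 59 and 30 to 47).

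Across the whole low part, both libraries held fewer tags per bin than the rest of chromosome 6, and the ChIP library far fewer. The 223 bins between the edges held from 24 to 120 ChIP tags with a median of 63, against a median of 142 in the rest of the chromosome. Their input tags ran from 72 to 341 with a median of 158, against a median of 190.5. The mean ChIP density was 0.469 of the rest of chromosome 6 (0.461 to 0.477) and the mean input density 0.882 (0.873 to 0.892). Dividing one by the other, the ChIP to input ratio between the edges was 0.531 of that in the rest of the chromosome (0.521 to 0.542).

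The choice of reference moved this ratio little, but moved the density of each library more. Relative to 2 Mb of flank on either side, the ratio was 0.534 (0.519 to 0.550), and relative to the other autosomes it was 0.547 (0.536 to 0.557). Mean density relative to the flanks was 0.397 (0.387 to 0.406) for ChIP and 0.742 (0.729 to 0.756) for input. For only 500 kb inside an edge over 500 kb outside, the ratio was 0.402 (0.365 to 0.442) at the first edge. At the second edge it was 0.502 (0.455 to 0.553). Apart from the stretch, chromosome 6 itself was close to the other autosomes, at 1.03 times their ratio (1.02 to 1.03). Both strands gave the same pooled log2 ratio between the edges, -0.87 (-0.91 to -0.83) for plus-strand tags and -0.87 (-0.91 to -0.83) for minus-strand tags.

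**Figure D3:**
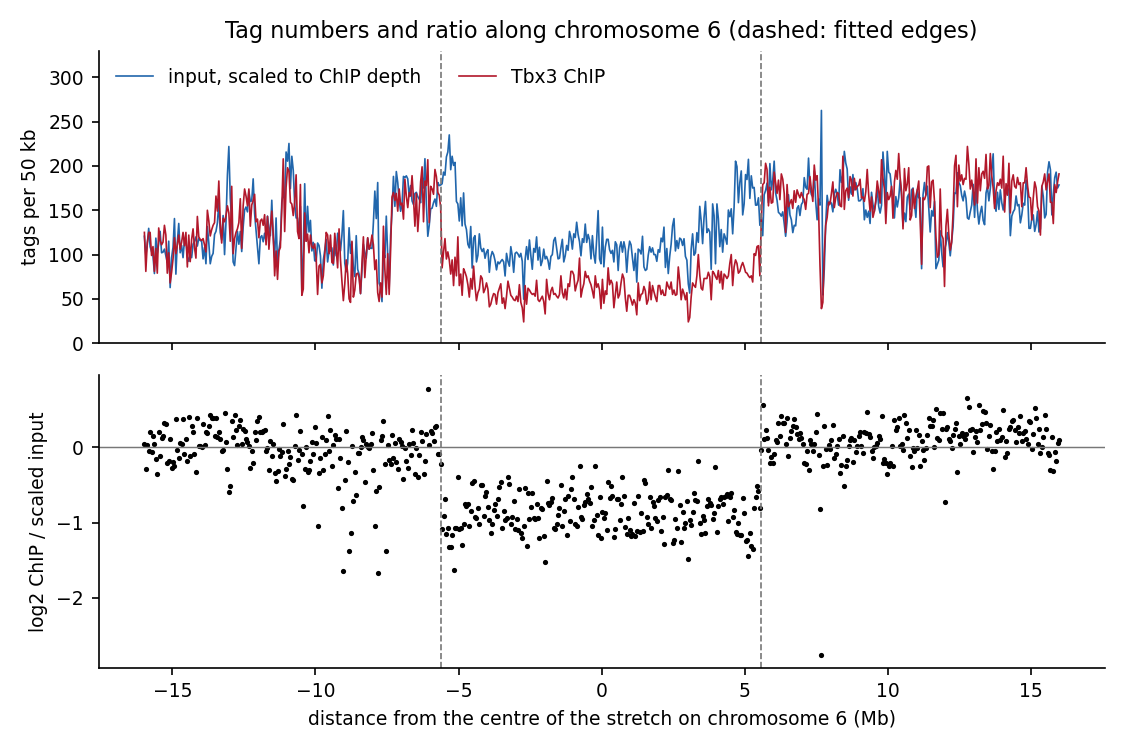
Upper panel: ChIP tags and input tags scaled to the ChIP depth per 50 kb bin (y axis) against distance in Mb from the centre of the stretch (x axis). Lower panel: log2 ratio of the 2 curves; dashed lines mark the fitted edges. ChIP and scaled input lie nearer to each other outside the edges and run apart between them, where every bin has a log2 ratio below 0. Outside the edges, pooled log2 ratios per Mb were -0.17, -0.20 and -0.25 from 68 to 71 Mb. From 84 to 86 Mb they were 0.19 and -0.15. The counting intervals of these values exclude 0. Those from 71 to 72 Mb (-0.04) and from 86 to 88 Mb (-0.04 and 0.04) include 0.

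Chromosome X was set beside the stretch within the same libraries, since male cells hold a single X beside a pair of each autosome. On X the density was 0.409 of the other autosomes in the ChIP library (0.408 to 0.411) and 0.437 in the input (0.436 to 0.439). Between the edges on chromosome 6 it was 0.461 (0.454 to 0.469) in the ChIP library and 0.844 (0.835 to 0.852) in the input. With the other autosomes as reference, the stretch thus lay a little above X in ChIP density and far above it in input density. Relative to its 2 Mb flanks, however, the ChIP density of the stretch was 0.397, below the value of X. The order in ChIP density therefore depended on the reference. Regions that differ in base composition and mappable length are not directly comparable in density, so these values are placed side by side without a test.

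Between the edges the ratio was nearly level over most of its length. In the 10 whole 1 Mb intervals from 73 to 83 Mb, log2 ratios ran from -0.91 to -0.78 with a median of -0.82. The counting interval of each of the 10 included that median, so neighbouring intervals were not resolved from each other. ChIP tags per interval ran from 1045 to 1616 and input tags from 2708 to 4285, with the highest values of both from 82 to 83 Mb. The 2 outermost intervals of the stretch, which hold its edges, stood at -0.54 (-0.61 to -0.47) and -0.44 (-0.51 to -0.38).

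Pooled over the 20 bins inside each edge, the ratio was lower than in the middle, where tags of both libraries were sparser. The first 20 bins after the first edge, from 72.4 to 73.4 Mb, had a pooled log2 ratio of -1.03 (-1.11 to -0.95) with 84.1 ChIP and 249 input tags per bin. The last 20 bins, from 82.55 to 83.55 Mb, had -0.998 (-1.08 to -0.92) with 85.4 ChIP and 247.5 input tags per bin. The 183 bins between had -0.82 (-0.85 to -0.79) with 60.5 and 155 tags per bin. The intervals of the first and last 20 bins do not overlap that of the middle. Among the last 20, however, the 4 bins from 83.3 to 83.5 Mb had -0.64 (-0.81 to -0.47), not lower than the middle. Input density was higher where the ratio was lower in these 3 sections, and its part in the difference was not tested.

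Low single bins were found near the edges and in the middle. Of the 229 members passing the limit on tags, the 5 of lowest ratio lay near an edge: the bin from 72.8 Mb, with 65 ChIP and 291 input tags, had a log2 ratio of -1.63 (-2.04 to -1.23). The bins from 83.1, 83.25, 72.7 and 72.65 Mb had -1.45, -1.34, -1.33 and -1.32. Their intervals overlapped, so their order is not resolved. Over all 240 members, however, the next lowest after the bin from 72.8 Mb were mid-stretch bins with too few ChIP tags for the limit. The bin from 76 Mb had -1.53 (-2.12 to -0.97), with 33 ChIP and 138 input tags, and the bin from 81 Mb had -1.48 (-2.19 to -0.82), with 24 and 97. The 5 members of highest ratio all lay outside the fitted edges, from 0.22 in the bin from 72 Mb to 0.56 in the bin from 83.6 Mb. Between the edges the highest value was -0.19 (-0.56 to 0.18), in the bin from 81.35 Mb with 100 ChIP and 165 input tags.

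Spread among the 212 bins between the edges that passed the limit on tags was mostly that of counting. The standard deviation of their log2 ratios was 0.257, and tag counts alone would give 0.213. In such bins of the rest of chromosome 6 the values were 0.265 and 0.165, which leaves 0.207 beyond counting there and 0.143 between the edges. The limit left out 11 of 223 bins between the edges, those with the fewest ChIP tags, and 26 of 2690 in the rest. The 2 spreads are therefore not strictly alike. ChIP and input tags rose and fell together from bin to bin on either side of the edges. Over all 223 bins between the edges Pearson's r was 0.731 and Spearman's rho 0.714. Over 2664 bins of the rest of the chromosome they were 0.721 and 0.752. The limit on tags was applied to the second set only, so the 2 pairs of values are not strictly alike. These coefficients describe bins of the same 2 libraries, which share mappability and base composition, and carry no test.

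The ratio was also set out by level of input density. Because the stretch was chosen by its low ratio and its edges were fitted to these tags, low values in each class are a description. They do not test a part of input density in the low ratio. To keep the input count used for sorting apart from the one used in the ratio, bins were sorted by plus-strand input tags and the ratio was taken over minus-strand input tags. Among bins with 70 or fewer plus-strand input tags, the pooled log2 ratio was -0.85 (-0.92 to -0.78) in 59 bins between the edges and 0.06 (0.03 to 0.08) in 392 bins of the rest of the chromosome. Among bins with 93 or more, it was -0.97 (-1.03 to -0.92) in 56 bins and 0.01 (0.00316 to 0.02) in 1455. In the 4 classes of input density the ratio between the edges was 53.2%, 53.1%, 52.0% and 50.5% of that in the rest of the chromosome.

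**Figure D4:**
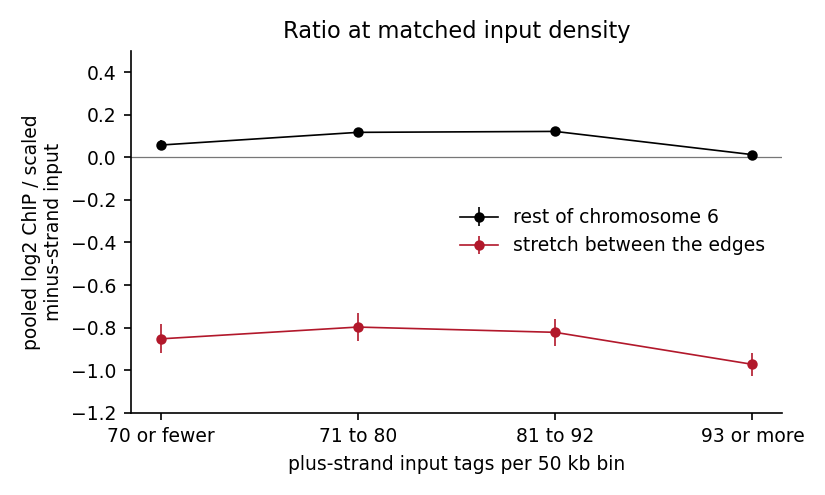
Pooled log2 ratio of ChIP to scaled minus-strand input tags (y axis) in 4 classes of 50 kb bins by their plus-strand input tags (x axis), for the stretch between the fitted edges (red) and the rest of chromosome 6 (black); bars are 95% counting intervals. The red points lie from -0.97 to -0.80 and the black ones from 0.01 to 0.12.

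Among bins passing the limit on tags, the longest unbroken run of low bins was longer in the stretch than elsewhere on the autosomes. The stretch was chosen by its low ratio, so this is a description. A bin missing the limit breaks a run. On chromosome 13 from 61 to 69 Mb, 56 of 160 bins missed it, against 11 of 240 members. Runs elsewhere were not counted without the limit. The longest unbroken run of members at or below -0.5 covered 31 bins, from 82.0 to 83.55 Mb. In the rest of chromosome 6 the longest run was 4 bins, from 70.05 to 70.25 Mb, and among the other autosomes it was 10 bins, on chromosome 13 from 62.1 to 62.6 Mb. In 1 Mb bins, 15 of 2361 elsewhere on the autosomes had a log2 ratio as low as the highest of the 10 whole intervals of the stretch, -0.78, and at most 2 of them were adjacent. Single bins elsewhere reached lower values, as on chromosome 8 from 19 to 20 Mb (-2.64).

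The low ratio of 2 other stretches reached the limit of -0.5 in fewer of their bins, and on chromosome 4 it came with a higher input. On chromosome 13 from 61000001 to 69000000, ChIP density was 0.616 of the rest of that chromosome (0.605 to 0.626) and input density 0.985 (0.974 to 0.996). There, 56 of 160 bins missed the limit on tags; the median log2 ratio was -0.20 over the others and -0.42 over all bins with tags in both libraries. On chromosome 4 from 143000001 to 148000000, ChIP density was 0.960 (0.943 to 0.977) and input density 1.86 (1.84 to 1.88), and the median log2 ratio was -0.19 over bins passing the limit and -0.31 over all. Of bins with tags in both libraries, 47.3% in the part of chromosome 13 and 38.0% in that of chromosome 4 were at or below -0.5. On chromosome 6 the share was 85.4% of all 240 members, and 91.9% between the edges. Those edges were fitted to these same tags, and the other 2 stretches were not trimmed in this way. The raised stretch of chromosome 8, from 53000001 to 111000000, had a ChIP density of 1.40 (1.39 to 1.41) and an input density of 0.890 (0.885 to 0.894) relative to the rest of chromosome 8.

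**Figure D5:**
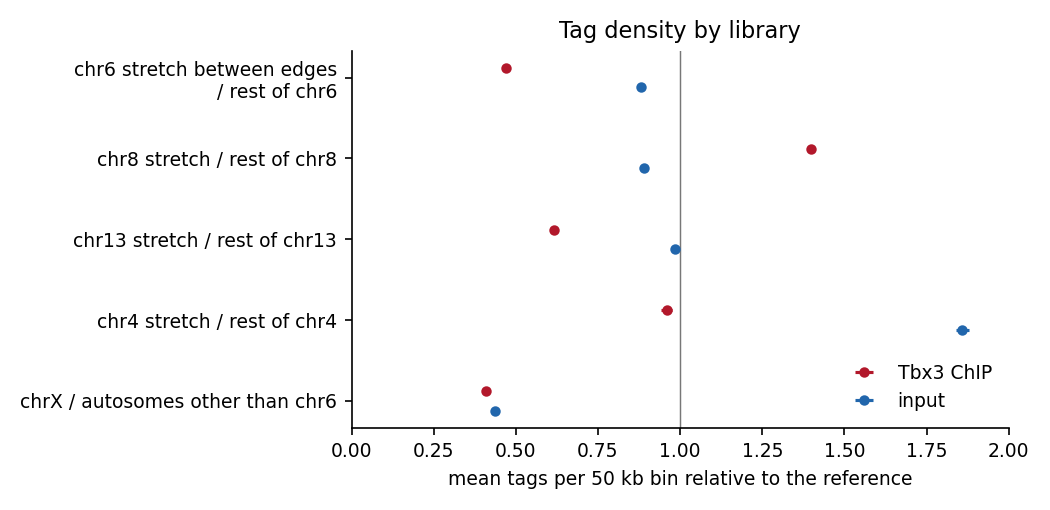
Mean tags per 50 kb bin relative to the named reference (x axis, linear from 0) for the Tbx3 ChIP (red) and the input (blue), with 95% counting intervals that are mostly smaller than the points. Between the edges on chromosome 6 the ChIP value is 0.469 and the input value 0.882; on chromosome X both are low, at 0.409 and 0.437.

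Properties of the tags that the rule did not use were then compared. Plus-strand tags made up 49.9% of ChIP tags in the stretch (49.1% to 50.6%) and 50.1% in the rest of chromosome 6 (49.9% to 50.2%). In the input the shares were 49.8% (49.3% to 50.3%) and 50.1% (49.9% to 50.2%). Repeated tags, which were removed before counting, made up 0.607% of all input tags in the stretch (0.536% to 0.686%) and 6.38% in the rest of the chromosome (6.32% to 6.44%). These shares pool all tags and do not describe a typical bin. Over bins passing the limit on tags, the members' median input density was 0.865 of the rest with repeats and 0.864 without. Repeats were thus not spread evenly over the bins of the rest. The ChIP list had been collapsed before deposit and gives no such share.

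The trace of short fragments per ChIP tag was present inside and outside the stretch. A plus-strand tag followed by a minus-strand tag at 100 to 149 bp is the mark of fragments from a common place, and pairs at 300 to 349 bp give the level from tag density alone. In the ChIP library there were 417 and 232 such pairs between the edges, an excess of 2.56 per 100 plus-strand tags (counting SE 0.352), and in the rest of chromosome 6 the excess was 2.52 (SE 0.0992). The difference in excess was smaller than the counting SE of the first value, so none was detectable in this measure. As a ratio of near to far pairs, the values differed: 1.80 (1.53 to 2.12) between the edges and 1.32 (1.29 to 1.34) in the rest. Tag density sets the far pairs and was lower between the edges, so the answer depended on the measure. Pairs that share a tag are not independent, so these errors and intervals are too small. Without tags within 1 kb of the densest windows the ChIP excess was 2.50 (SE 0.348) and 2.14 (SE 0.0978). The input excess was then 1.02 (SE 0.325) and 0.883 (SE 0.0927). With all tags the input excess of the rest of the chromosome stood at 2.02.

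A scan for local enrichment, the form in which a bound site shows, found 1 region in the stretch. ChIP tags in 300 bp windows were compared with a local rate, the highest of 4: scaled input in 1, 5 and 10 kb around the window and the mean ChIP rate of the genome. By a one-sided exact Poisson test, 1 region of the stretch passed at an adjusted p under 0.05 (Benjamini-Hochberg over 20081495 windows). It lay on chromosome 6 from 83387401 to 83387800, and its top window held 13 ChIP and 2 input tags. This was 6.92 times the local rate of 1.88 (3.68 to 11.8; adjusted p = 0.00153, exact Poisson test). Thus 1 of 240 members, 0.417% (0.0105% to 2.30%, exact binomial), held a region, and 2.13% of all 50 kb bins did. The members' interval includes that share. Counted per length, the stretch had 0.0833 regions per Mb (0.00211 to 0.464, exact Poisson), and the 20 chromosomes had 0.474 per covered Mb, just above the interval. With the input in 1 and 5 kb left out of the local rate, 2 of 240 members held a region, 0.833% (0.101% to 2.98%), below the 3.26% of all bins. Whether regions were fewer than elsewhere thus depended on the measure and the local rate.

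The local rates come from the input and the genome-wide ChIP rate, and both lie above the level of ChIP tags found in the stretch. When these rates were multiplied inside the stretch by its own pooled ratio, 0.596, 3 regions passed, a share of 1.25% of members (0.259% to 3.61%) beside 2.14% of all bins. Per length this was 0.25 per Mb (0.0516 to 0.731), beside 0.475, and both intervals include the value of the genome. One added region lay from 74877201 to 74877600, with 7 ChIP and 0 input tags in its top window, and the other from 79986401 to 79986800, with 8 ChIP and 2 input tags. Their adjusted p were 0.0126 and 0.00200, and that of the region from 83387401 became 6.1e-06 (exact Poisson test, Benjamini-Hochberg). Lower rates can only add regions. With 1 library on each side, the test is one of these libraries alone.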

How the data were processed

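The authors deposited 1 list of mapped tags per library, with positions in mm8 per the submitters' processing notes; aligner and filters: not given in the sources used here. The ChIP list gives chromosome, position and strand, with no position and strand repeated; the input list gives both ends of each 35 bp tag, repeats kept. Of input tags at the same position and strand, 1 was kept, and it was placed at their 5′ end. Tags were counted in 50 kb bins with Python 3.11.15, numpy 2.4.6 and scipy 1.17.1. Counts and shares have exact intervals (Poisson; Clopper-Pearson binomial); those of a ratio of ratios use the normal approximation on the log scale. For the window scan, tags were moved by 62 bp, and windows were placed every 100 bp. Steps and scan were also run on simulated tags, with edges planted on borders of 10 kb bins and ChIP tags drawn from the input's rates. Those tags had no spread beyond counting, unlike these data, so the run cannot tell how exactly the edges are placed here. The stretch, the compared stretches and the bins named (the 5 lowest and highest members passing the limit, and those at the edges) were set with earlier results of these data known; the fitted edges, and values between them, come from these tags.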

Additional observations from a re-analysis of the deposited data

How the results depend on the processing

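The median log2 ratio of the members, -0.81, was below 0 under all 9 alternatives and left its narrow counting interval under 8: -0.72 with all input tags kept, -0.85 with input scaled by the rest of chromosome 6 or by the median autosome bin, -0.76 with 10 kb and -0.84 with 200 kb bins, -0.85 without the limit on tags, -0.86 with minus-strand tags and -0.86 between the fitted edges. Relative to the rest of chromosome 6, the difference lay between -0.94 and -0.83. The median ChIP density was 0.465 of the rest of the chromosome, and 0.454 between the fitted edges. That of the input was 0.864, against 0.848 without the limit on tags and 0.840 between the edges. Support for both edges overlapped with 5 kb bins and with either strand, and for the second edge with 20 kb bins. With minus-strand tags, however, the second edge was placed at 83.52 Mb, with support up to 83.56 Mb, the lower end of the main support. With 20 kb bins the first edge was at 72.38 Mb, 1 step of 10 kb from 72.39 Mb, which is no border of 20 kb bins. The number of members at or below -0.5, 194 of 229, varied under 6 alternatives. It ran from 145 of 229, with -0.7 in place of -0.5, to 205 of 240 without the limit on tags. The limit on the ratio also sets the counts elsewhere: at -0.4 they were 115 in the rest of chromosome 6 and 2450 in the other autosomes. At -0.7 they were 25 and 519, and with all tags kept 41 and 883. The scan found 3 regions with rates multiplied by the ratio of the stretch or of the part between the fitted edges, 2 when the input in 1 and 5 kb was left out of the local rate (0.833% of members, with an interval below the 3.26% of all bins), and 1 with 600 bp windows or an adjusted p under 0.01; lower rates are what the first settings consist of. Values between the fitted edges were chosen after seeing the data. No paired analysis was possible because each group holds 1 library. At this depth the 212 bins between the edges that passed the limit on tags hold a median of 64.5 ChIP tags. Counting alone gives their log2 ratios a standard deviation of 0.213.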

Other observations

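Some bins near the edges stood apart from their neighbours; they were singled out on their values and carry no test. From 83.3 to 83.5 Mb, 4 bins inside the second edge had 99 to 110 ChIP tags each and a pooled log2 ratio of -0.64 (95% counting interval -0.81 to -0.47). The 8 bins before them, from 82.9 to 83.3 Mb, had 69 to 91 ChIP tags each and -1.16 (-1.29 to -1.03). Their input tags overlapped, at 226 to 255 and 210 to 301 per bin. The enriched region from 83387401, whose top window held 13 ChIP tags, lies in the first of these groups.

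Outside the low part, the bin from 71.9 Mb, 440 kb before the first edge, held 207 ChIP and 175 input tags. Its log2 ratio of 0.78 was the second highest (rank 2) of the 2893 bins of chromosome 6 that passed the limit on tags. The bin from 83.6 Mb, 30 kb after the second edge, held 179 ChIP and 176 input tags, and its log2 ratio of 0.56 ranked 30 of 2893.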
